A study of Mus musculus with 34 samples.

Results

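The genes described here are 5 connexins measured in the mouse cornea, Gja1, Gjb2, Gjb5, Gjb6 and Gjc1. They were taken by symbol, as probe sets with exactly 1 gene symbol equal to one of these names. Each of the 5 had 1 such probe set, out of 19938 genes with a probe set of this kind, and all 5 passed the filter on low values that left 12998 genes. Gja1 and Gjb2 lay above the array median on all 32 whole-cornea arrays, Gjc1 on 16, Gjb5 on 14 and Gjb6 on 10. Those of Gjc1 were all of P14 or earlier, and those of Gjb5 all of P28 or later. The corneas came from wild-type CB6 mice and were dissected whole at E14.5, E15.5 and E17.5 of embryonic life, at P3, P7, P14 and P28 after birth, and at 2 months, 6 months, 1 year, 18 months and 2 years. Each age up to 2 months had 3 arrays and each later age had 2, which gives 32 whole-cornea arrays. There was also 1 array of epithelium from P28, freed with dispase, and 1 array of stroma from P7, laser captured from sections of the globe. No agent or altered allele is named for any sample. All values are intensities on a linear scale from Affymetrix gene arrays, for which amplified RNA from 20 ng was used, and differences are of log2(intensity + 16), a scale that understates the change of dim probe sets.

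Connexins span the plasma membrane and join into rings that act as hemichannels. Hemichannels of adjoining cells dock to form gap junctions, through which ions and small metabolites pass. In the cornea, which has no blood vessels at its centre, such junctions couple the cells of the epithelium, the keratocyte network of the stroma and the endothelium. Gja1 encodes connexin Cx43, the most widespread of the family, Gjb2 encodes Cx26, whose mutations in people cause a syndrome of keratitis, ichthyosis and deafness, and Gjb6 encodes Cx30, a close relative that is joined with Cx26 in the inner ear and skin. Gjb5 encodes a connexin of stratified epithelia and placental trophoblast. Gjc1 encodes Cx45, known from the embryonic heart, the cardiac conduction system and vascular smooth muscle.

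The 4 genes with a RefSeq promoter entry (GRCm38.p6, 250 bases before to 50 after the start, 300 in all) are shown because Gjb2 and Gjb6 lie beside each other on chromosome 14 and had correlated age means, Gjb5 had the largest rise, and Gja1 moved least. Gja1 lies at chr10:56377050-56377349 on the plus strand, Gjb2 at chr14:57104653-57104952, Gjb6 at chr14:57133562-57133861 and Gjb5 at chr4:127358115-127358414, each of these on the minus strand. Every sequence is printed 5′ to 3′ on the strand of its gene, and capitals mark matches to the motifs searched.
Gja1: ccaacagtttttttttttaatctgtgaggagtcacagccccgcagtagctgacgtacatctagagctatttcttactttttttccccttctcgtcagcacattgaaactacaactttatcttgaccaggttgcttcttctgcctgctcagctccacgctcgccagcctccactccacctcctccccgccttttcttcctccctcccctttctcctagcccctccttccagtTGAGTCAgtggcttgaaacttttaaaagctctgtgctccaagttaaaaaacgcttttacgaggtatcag
Gjb2: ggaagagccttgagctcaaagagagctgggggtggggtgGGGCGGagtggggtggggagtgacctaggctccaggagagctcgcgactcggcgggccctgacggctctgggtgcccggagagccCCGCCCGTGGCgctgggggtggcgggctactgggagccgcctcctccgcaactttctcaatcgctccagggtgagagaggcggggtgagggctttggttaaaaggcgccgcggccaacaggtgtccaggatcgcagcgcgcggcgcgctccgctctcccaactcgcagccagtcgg
Gjb6: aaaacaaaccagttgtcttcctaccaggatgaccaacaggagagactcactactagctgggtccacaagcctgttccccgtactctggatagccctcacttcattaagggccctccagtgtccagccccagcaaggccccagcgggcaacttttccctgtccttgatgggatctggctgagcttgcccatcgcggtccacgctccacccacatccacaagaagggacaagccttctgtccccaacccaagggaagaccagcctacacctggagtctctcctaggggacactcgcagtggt
Gjb5: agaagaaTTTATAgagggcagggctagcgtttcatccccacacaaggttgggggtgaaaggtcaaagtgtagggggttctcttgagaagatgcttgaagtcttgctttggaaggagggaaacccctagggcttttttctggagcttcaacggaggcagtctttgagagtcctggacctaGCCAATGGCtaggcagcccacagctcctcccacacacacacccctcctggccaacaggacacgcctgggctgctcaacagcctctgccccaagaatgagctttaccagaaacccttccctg

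The motifs were searched on both strands as the GC box GGGCGG, the AP-2 motif GCCNNNGGC, the CCAAT box CCAAT, the TATA box TATAAA and the AP-1 motif TGANTCA. Positions are those of the first base of the match on the printed strand, counted from the start site. The Gjb2 promoter held GC boxes at -211 and -126 and an AP-2 motif at -124 that overlaps the second of them, with 70.0% G or C and 27 CpG dinucleotides. The Gjb6 promoter held none of these motifs, with 57.3% G or C and 6 CpG, so the neighbours differed in this window. In the Gjb5 promoter an AP-2 motif at -71 enclosed a CCAAT box at -70, and a TATA box lay at -243 on the opposite strand. The Gja1 promoter held an AP-1 motif at -19. Of 32851 promoters of the same length, 35.7% held the GC box, 16.6% the AP-2 motif, 37.4% the CCAAT box, 13.6% the TATA box and 7.8% the AP-1 motif, and the medians were 52.7% G or C and 7 CpG.

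Over life the connexins of the cornea did not all follow the same course. Gjc1 fell from an intensity of 1181 ± 279 (SD, n = 3) at E14.5 to 12.8 ± 4.58 (SD, n = 2) at 2 years, while Gjb5 rose from 56.5 ± 20.2 (SD, n = 3) at E14.5 to 783 ± 136 (SD, n = 3) at P28 and lay between 614 and 691 on average thereafter. Gjb2 and Gjb6 were lowest at P3 and higher again in the adult. Gja1 stayed within a 2.00-fold span of age means. Whole cornea is a mixture, so fewer cells of a type and less RNA per cell cannot be told apart for any of these values. By limma's moderated F-test over the 12 ages, 4 of 5 connexins were called, that is, had an adjusted p under 0.05 and age means at least 1 apart on the log2 scale, against 40.6% of all genes tested. The median span of age means was 2.79 for the 5 connexins and 0.87 for all genes.

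**Figure D1:**
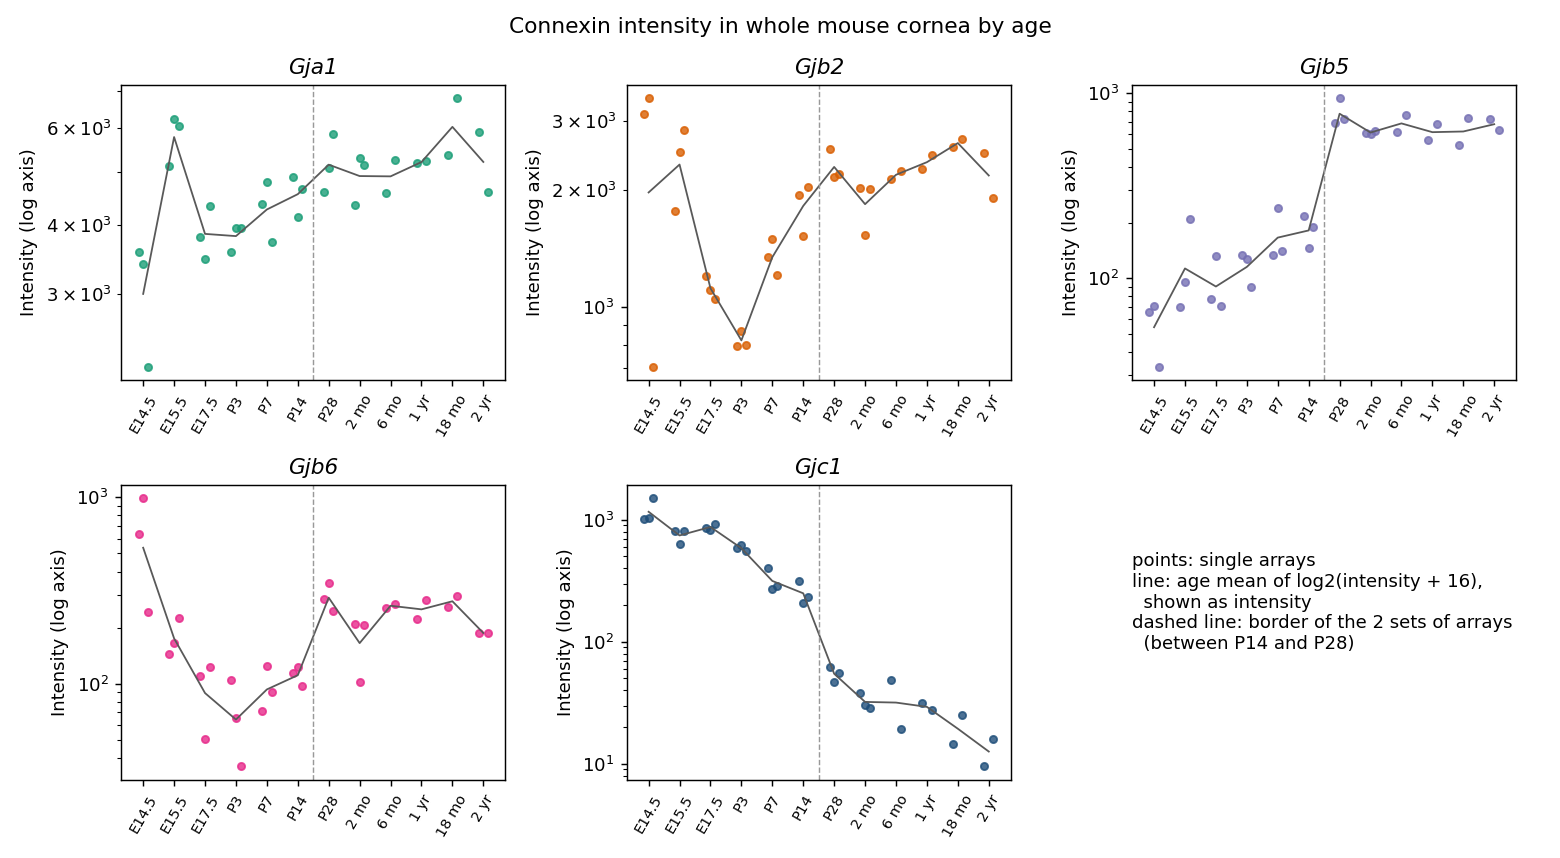
Intensity of the 5 connexins on each of the 32 whole-cornea arrays, by age from E14.5 to 2 years, on log axes that differ between panels. Points are arrays, the line joins the age means of log2(intensity + 16) shown as intensity, and the dashed line between P14 and P28 separates 2 sets of arrays; Gjc1 is far lower at the late ages than in the embryo, Gjb5 steps up at P28, and Gjb2 and Gjb6 have their lowest mean at P3.

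Arrays of the same age correlated at Pearson's r of 0.879 to 0.985 across the genes tested, and their median intensities ran from 188.2 to 240.6. The arrays formed 2 sets: 8 probe sets without a gene symbol read at least 1501 on all 18 arrays from E14.5 to P14 and at most 12.8 on all 14 arrays from P28 to 2 years. The origin of the sets is not given in the sources used here, so for P28 against P14, and for any adult age against an embryonic one, age and array set cannot be told apart. Values within each set are therefore given as well. Some arrays stood apart in genes of neighbouring tissue. The summed intensity of 17 lens genes was 108688 and 94696 on E14.5 replicates 2 and 3 against 7760.4 on replicate 1, and P14 replicate 2, 2 months replicate 1 and 6 months replicate 2 were also rich in lens genes. E17.5 replicates 1 and 3 were rich in skeletal muscle genes and 6 months replicate 1 in retina genes. The E14.5 arrays carried little of the corneal epithelial signature: Krt12, the keratin that defines this epithelium, read 48.2 to 62.8 there and 5329 to 8654 at E15.5. Whether arrays of an age stand for separate animals is not stated in the labels, and p-values here reflect the spread among these samples, which may be technical.

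Gja1, the main gap junction gene of most cells, was bright on every array, between 2221 and 6782. It read 3582, 3409 and 2221 on the E14.5 arrays and 5117, 6226 and 6038 on the E15.5 arrays. All E15.5 arrays lay above all E14.5 arrays, as arrays did without overlap for 47.4% of genes at this step. The difference was 0.94 (SE 0.16, adjusted p = 5.6e-05, limma), just short of the size needed for a call. After E15.5 Gja1 read 3806, 3481 and 4333 at E17.5 and 3571, 3952 and 3956 at P3, so each of these arrays lay below each E15.5 array. Means then lay at 4293 ± 535 (SD, n = 3) at P7, 4562 ± 386 (SD, n = 3) at P14, 5172 ± 638 (SD, n = 3) at P28 and 6065 ± 1014 (SD, n = 2) at 18 months. With the ages ranked by mean level, all 11 pairs of neighbours in that ranking overlapped. The span over the 12 ages was 0.999 with an adjusted p of 3.2e-04, below the limit of 1, and it passed that limit when E14.5 replicate 1 (1.13), E14.5 replicate 2 (1.09), E15.5 replicate 1 (1.02) or 18 months replicate 1 (1.17) was left out. Leaving out the arrays rich in lens genes gave a span of 0.75.

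Gjb2, the gene of Cx26, dipped around birth. Its E14.5 arrays were far apart, at 3133, 3433 and 706, and the low one, replicate 3, was also the lowest of that age in the corneal epithelium list (summed intensity of 12 genes 3233, against 7944 and 10425) and in the keratocyte list (summed intensity of 10 genes 7821, against 14279 and 13324). The part of these lists in the low value was not tested. Gjb2 read 1761, 2503 and 2841 at E15.5, then 1204, 1106 and 1053 at E17.5 and 798, 872 and 802 at P3. Each E17.5 array lay below each E15.5 array, and each P3 array below each E17.5 array. The corneal epithelium list summed to 32948 to 47798 at E15.5, 27114 to 33936 at E17.5, 30735 to 33857 at P3 and 50578 to 62452 at P7, and its part in the dip was not tested. Gjb2 read 1346, 1494 and 1209 at P7, all above P3, and 1942, 1526 and 2034 at P14. From P28 on every array read between 1530.3 and 2706, with means of 2296 ± 212 (SD, n = 3) at P28 and 2637 ± 97.5 (SD, n = 2) at 18 months. The span of 1.66 over the 12 ages was called (adjusted p = 0.00307), as was the span of 1.48 within the 6 ages from E14.5 to P14 (adjusted p = 0.00500), while the span of 0.52 from P28 on was not (adjusted p = 0.868). With the ages ranked by mean level, 4 of the 11 pairs of neighbours in that ranking did not overlap: 18 months over 1 year, P14 over P7, P7 over E17.5 and E17.5 over P3. The pair of 18 months and 1 year had 2 arrays each, and its difference was 0.16 (adjusted p = 0.935, limma). Such counts of ranked pairs were not made over all genes, so for every connexin they are a description only.

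At E17.5 against E15.5 the fall of Gjb2 had an estimate of -1.04 (SE 0.33, adjusted p = 0.120), which did not pass. The E17.5 replicates 1 and 3 are those rich in muscle genes, and without them, on replicate 2 alone, it was -1.06 (adjusted p = 0.227). With array weights it was -1.03 (adjusted p = 0.00370), and without the arrays rich in lens genes, none of which is of these ages, -1.04 (SE 0.15, adjusted p = 0.00282), and both passed. None of the 5 connexins was called at this step by limma, 3 had an unadjusted p under 0.05, and 0.569% of all genes were called. The arrays of both ages did not overlap for 4 of 5 connexins and for 16.1% of all genes. Gja1 (-0.58, adjusted p = 0.0697) and Gjb6 (-0.86, adjusted p = 0.250) also had lower estimates at E17.5, and Gjc1 a higher one (0.23, adjusted p = 0.656).

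Gjb6, the gene of Cx30 and the neighbour of Gjb2, was highest at E14.5. It read 634, 992 and 242 there and 144, 165 and 224 at E15.5, so the groups did not overlap, although replicate 3 of E14.5 lay close to the highest E15.5 array. The fall was 1.53 on the log2 scale (SE 0.36, adjusted p = 0.00195), a 2.89-fold change, and Gjb6 was the 1 connexin of 5 called at this step, where 10.4% of all genes were called. With these ages fitted alone the adjusted p was 0.0555, and with single arrays left out the fall ran from -2.08 to -1.10. Without the arrays rich in lens genes E14.5 rests on replicate 1 alone, taken to vary like the other ages, and the estimate was -1.77 (adjusted p = 0.00615). The epithelium list summed to 3233 to 10425 at E14.5 and to 32948 to 47798 at E15.5, the keratocyte list to 7821 to 14279 and 51567 to 60237, and their part in the fall was not tested.

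Gjb6 went on to 109, 50.6 and 123 at E17.5 and 105, 65.7 and 36.0 at P3, where it lay below the array median on every array. Its lowest mean was at P3, but without the muscle-rich E17.5 arrays the estimate for P3 against E17.5 was 0.27 in place of -0.39, on E17.5 replicate 2 alone. It read 71.2, 124 and 89.9 at P7 and 114, 124 and 96.6 at P14, close to the range at E17.5. At P28 it read 284, 348 and 245, each above all arrays from E17.5 to P14. Later arrays ran from 102 to 296, with 2 months replicate 2 at the low end. The span of 2.79 was called over the 12 ages (adjusted p = 1.2e-05) and within E14.5 to P14 (adjusted p = 1.4e-05), and the span of 0.75 from P28 on was not (adjusted p = 0.454). With the ages ranked by mean level, 1 of the 11 pairs of neighbours in that ranking did not overlap, 1 year over 2 years, with 2 arrays each.

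The age means of Gjb2 and Gjb6 were correlated. Over 12 age means their Pearson's r was 0.781, and over the 11 without E14.5 it was 0.919. Within an array, Gjb6 minus Gjb2 was -1.85 ± 0.40 (SD, n = 3) at E14.5 and -3.61 ± 0.17 (SD, n = 3) at E15.5, and at the later ages its mean lay between -3.85 and -2.92. All E14.5 arrays were at -2.28 or above and all E15.5 arrays at -3.47 or below, so the unequal change held for each array. The gap also moved from -3.85 ± 0.36 (SD, n = 3) at P14 to -2.92 ± 0.29 (SD, n = 3) at P28, again without overlap. Gja1 tracked Gjb2 in the same way, with r of 0.619 over 12 ages and 0.935 without E14.5. Without E14.5 every pair among Gja1, Gjb2, Gjb5 and Gjb6 had a positive r, the lowest being 0.599 for Gja1 and Gjb5. Gjc1 had a negative r with each of them, from -0.594 with Gja1 to -0.975 with Gjb5. Over all 12 ages r was 0.0789 for Gja1 and Gjb6 and 0.291 for Gjb5 and Gjb6, against 0.848 and 0.840 without E14.5. For Gja1 and Gjb5 it was 0.720 over all 12 ages, so the likeness of these genes depends on the ages taken. These correlations share arrays and tissue makeup, span the sets of arrays that part between P14 and P28, and are given as description.

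Gjb5, a connexin of stratified epithelia, was high from P28 on, past a border at which age and array set cannot be told apart. It read 65.7, 70.4 and 33.3 at E14.5, 70.1, 95.2 and 208 at E15.5 and 77.4, 132 and 70.5 at E17.5. It read 134, 127 and 89.5 at P3, 134, 239 and 141 at P7 and 216, 146 and 189 at P14, and neighbouring ages overlapped up to P14 except that the P7 arrays lay just above those of P3. At P28 it read 688, 939 and 722, and no later array was below 527. Every array from P28 on was thus above every earlier one, the highest of which was P7 replicate 2 at 239. P28 exceeded P14 by 2.00 on the log2 scale (SE 0.28, 95% interval 1.42 to 2.59, adjusted p = 1.5e-05), a 4.01-fold change. Gjb5 passed the filter only through the arrays from P28 on, where it was high, so this step is best read as a description. The call also held with no filter. Within E14.5 to P14 the span was 1.49 (adjusted p = 0.00128), with the highest mean at P14, though not called after quantile normalization (1.02, adjusted p = 0.0562). From P28 on the span was 0.33 (adjusted p = 0.899).

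P28 against P14 was the step with the most connexins called, 3 of 5 against 7.65% of all genes, and 4 of 5 did not overlap against 46.0%. Beside Gjb5, Gjb6 rose by 1.27 (SE 0.36, 95% interval 0.52 to 2.02, adjusted p = 0.00980), a 2.41-fold change. Gjc1 fell by 1.91 on the log2 scale (SE 0.20, 95% interval -2.32 to -1.50, adjusted p = 3.2e-07), a 3.75-fold change. With any 1 array of these ages left out, the 3 calls held, Gjb5 at 1.86 to 2.12, Gjb6 at 1.14 to 1.38 and Gjc1 at -2.03 to -1.75. They also held with no filter on low values. Gjb5 had passed that filter only by arrays from P28 on, and Gjc1 only by arrays up to P14, so both of these steps are a description. Gja1 (0.18, adjusted p = 0.421) and Gjb2 (0.33, adjusted p = 0.485) did not pass, and after quantile normalization their estimates were -0.10 and -0.04. The median difference of all genes was 0.11 at this step.

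Marker lists moved over the same step. The epithelium list summed to 57311 to 71837 at P14 and 77546 to 83622 at P28, the keratocyte list to 35094 to 48263 and 18808 to 20819.6, the vessel and mural cell list of 12 genes to 5732 to 6928 and 1638 to 2579, and the corneal endothelium list of 7 genes to 4907 to 9588 and 1641 to 2777. At this step Gjb5 moved in the direction of the epithelium list and Gjc1 in that of the other 3 lists. At other steps Gjc1 moved with some of these lists and against others. The vessel and mural cell list summed to 2836 to 5538 at E15.5 and 5051 to 13379.7 at E17.5, where Gjc1 was higher. That list summed to 6856 to 8446 at P3 and 2477 to 3789 at P7, where Gjc1 was lower. Gjc1 was lower at E15.5 than at E14.5, where the keratocyte list rose to 51567 to 60237. Gjc1 was also lower at 2 months than at P28, where the endothelium list rose to 8208 to 12129. The part of the lists in these changes was not tested, and the 2 sets of arrays part between P14 and P28 as well.

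**Figure D2:**
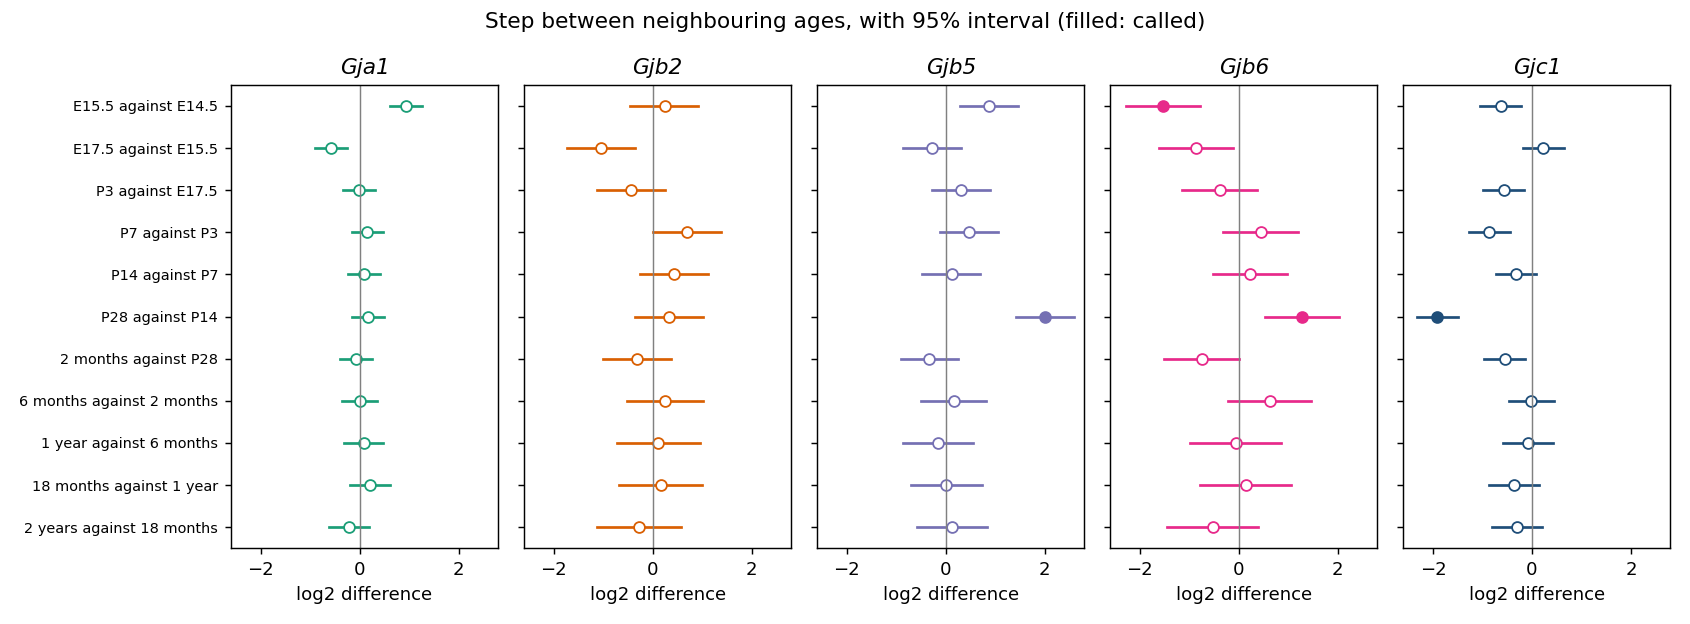
Difference in log2(intensity + 16) between each age and the one before it for the 5 connexins, from the fit over 32 whole-cornea arrays, with 95% intervals. Filled points are called (Gjb6 at E15.5 against E14.5, and Gjb5, Gjb6 and Gjc1 at P28 against P14), open points are not.

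Gjc1, the gene of Cx45, fell from the embryo to P28, though not at every step, and stayed dim to 2 years. It read 1012, 1028 and 1503 at E14.5, 809, 627 and 807 at E15.5 and 861, 830.3 and 927 at E17.5. It read 590.4, 615 and 549 at P3, 403, 268 and 289 at P7 and 316, 209 and 235 at P14. Every E17.5 array lay above every E15.5 array, every array of P3 below every embryonic array, and every array of P7 and P14 below every P3 array. At P28 it read 62.7, 46.7 and 55.7, at 2 months 38.1, 30.4 and 28.5, and at 6 months 48.4 and 19.4. The last arrays read 31.2 and 27.4 at 1 year, 14.4 and 25.2 at 18 months, and 9.55 and 16 at 2 years. No array from P28 on reached the lowest P14 array, and from 2 months on Gjc1 ranked above at most 5.20% of the named probe sets of its array. Its F over the 12 ages ranked 9 among 12998 genes (span 5.36, or 41.2-fold, adjusted p = 3.1e-17), and with the ages ranked by mean level 7 of the 11 pairs of neighbours did not overlap.

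Gjc1 fell within the earlier set of arrays, while the call of its fall within the later set depended on the processing. From E14.5 to P14 its span was 2.15 (adjusted p = 1.7e-08), where 4 of 5 connexins and 19.6% of all genes were called. P14 against E15.5, wholly within the earlier set, gave -1.52 (SE 0.20, adjusted p = 8.2e-06, 2.86-fold), the 1 call among 5 connexins against 5.19% of all genes. At that comparison 3 of 5 connexins did not overlap, against 34.0% of genes, and Gjb5 (0.61, adjusted p = 0.140) passed only without E15.5 replicate 3 (1.01, adjusted p = 0.0128). From P28 on the span of Gjc1 was 1.31 (adjusted p = 0.00350), the 1 call of 5 against 6.77% of all genes, with the highest mean at P28 and the lowest at 2 years. That call did not hold with an offset of 64 in place of 16 (0.63, adjusted p = 0.0706) or after quantile normalization (0.51, adjusted p = 0.239), and these intensities are among the dimmest of their arrays.

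The other single steps held no call among the connexins. P7 against P3 had 1.98% of genes called, and Gjc1 came nearest (-0.86, SE 0.20, adjusted p = 0.00808). It passed the size limit without P7 replicate 1 (-1.03) and after quantile normalization (-1.04), and 3 of 5 connexins did not overlap there, against 34.7% of genes. For P3 against E17.5, 1.89% of genes were called, and 1 connexin, Gjc1, had an unadjusted p under 0.05. No gene was called for P14 against P7 by limma (0%), where 819 genes but none of the connexins had an unadjusted p under 0.05. For 2 months against P28, with 2.12% of genes called, Gjc1 (-0.55, adjusted p = 0.0453) and Gjb6 (-0.75, adjusted p = 0.130) had an unadjusted p under 0.05. The share of genes called was 1.25% for 6 months against 2 months, 0.208% for 1 year against 6 months, 0.854% for 18 months against 1 year and 0.446% for 2 years against 18 months, and no connexin reached an unadjusted p of 0.05 in these 4.

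From embryo to young adult, 3 of 5 connexins were called, against 16.3% of all genes. These ages lie in different sets of arrays, so age and array set cannot be told apart. Gjb5 passed the filter only by arrays from P28 on and Gjc1 only by arrays up to P14, so their differences here are a description. At 2 months against E14.5, Gjb5 was 3.16 higher on the log2 scale (SE 0.28, adjusted p = 1.9e-09, 8.95-fold) and Gjc1 fell by 4.61 (SE 0.20, adjusted p = 3.5e-15, 24.4-fold). Gjb6 fell by 1.61 (SE 0.36, adjusted p = 8.3e-04, 3.05-fold). Gja1 was 0.70 higher (adjusted p = 7.3e-04), short of the size limit, and Gjb2 was at -0.10 (95% interval -0.79 to 0.59, adjusted p = 0.832). The arrays did not overlap for all of these but Gjb2, against 52.6% of genes. Without the arrays rich in lens genes, Gjb2 was at -0.83 (adjusted p = 0.00941), with E14.5 again represented by replicate 1.

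Ageing was tested as the 6 arrays of 1 year, 18 months and 2 years against the 5 of 2 and 6 months, with 0.677% of genes called. None of the connexins was called by limma and 1, Gjc1, had an unadjusted p under 0.05. Gjc1 averaged 33.0 ± 10.9 (SD, n = 5) in the younger and 20.6 ± 8.50 (SD, n = 6) in the older arrays (-0.42, SE 0.15, adjusted p = 0.110). For the others the estimates and 95% intervals were 0.16 (-0.09 to 0.40) for Gja1, 0.25 (-0.27 to 0.76) for Gjb2, -0.02 (-0.46 to 0.41) for Gjb5 and 0.16 (-0.40 to 0.73) for Gjb6. Groups overlapped for each of the 5, while 2.50% of all genes did not overlap.

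Gjb5 and Gjc1 had opposite profiles, with Pearson's r of -0.979 over the 12 age means. Between arrays of the same age, once age means were taken out, r was -0.218. Each of these genes made its largest single step at P28 against P14, where the sets of arrays part. The r over age means may thus reflect age or array set, and an r of age means within each set was not computed. The genes most like each connexin over the 12 age means were drawn from all genes tested. For Gjc1 they were Cep170 (r = 0.996), Robo2 (0.991), Ddah2 (0.990), Myo5a (0.989) and Plagl1 (0.989). For Gjb5 they were Smpdl3a (0.994), Clip4 (0.994), Lxn (0.993), Nfkbiz (0.989) and Dstn (0.989). Robo2 is an axon guidance receptor, Myo5a a cargo-carrying myosin, Nfkbiz an inducible nuclear regulator of NF-kB targets and Dstn an actin-depolymerizing protein. For Gja1 they were Cpne8 (0.973), Lrrc1 (0.970), Amer1 (0.956), Bcl6 (0.940) and Alcam (0.939). The list of Gjb2 was Ppig (0.924), Rbm34 (0.917), Sf3b2 (0.904), Smc3 (0.900) and Isoc1 (0.896), and that of Gjb6 was Pcgf6 (0.952), Marchf5 (0.928), Ccdc138 (0.921), Gfer (0.914) and Srsf1 (0.912). When the likeness was taken over the 32 arrays, 3 of the 5 names recurred for each of Gja1, Gjb5 and Gjc1, and none for Gjb2 or Gjb6. The age means are averages of these same arrays, so the rankings are not independent. All these lists also take in the step from P14 to P28, where age and array set cannot be told apart.

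The 2 layer arrays had a higher floor, with lowest intensities of 41.8 and 42.6 and medians of 318 and 321, so levels are compared between these 2 arrays, and whole-cornea levels serve only as an alternative or by rank. In epithelium of P28 and stroma of P7, Gja1 read 3618 and 5238, Gjb2 1892 and 3339.6, and Gjb6 275 and 389.8. Gjc1 read 387 and 507, and Gjb5 475 and 413. Of the 5 connexins, 4 were higher in the stroma array, against 49.6% of the 11107 genes above the median of either array, and Gjb5 alone was higher in the epithelium array. None was 4-fold apart, against 1.94% of these genes. The differences, epithelium minus stroma on the log2 scale, ran from -0.81 for Gjb2 to 0.19 for Gjb5. With the P7 whole cornea in place of the stroma array, Gjb2, Gjb6 and Gjc1 were higher in epithelium. The whole-cornea arrays have a lower floor and median, so this swap cannot settle the direction. By rank, epithelium and P7 whole cornea stood at 95.7% and 90.9% for Gjb2 and at 36.0% and 14.0% for Gjb6. For Gjc1 they stood at 57.7% and 58.3%. With 1 array per layer there is no test, and the layers also differ in age and isolation.

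The markers of these arrays bear on that comparison. Krt12 read 15153 in the epithelium array and 2185 in the stroma array, Krt5 9817 and 4078, and the epithelium list summed to 63785 and 24258, with 4 of 12 genes at least 4-fold higher in epithelium. The keratocyte list summed to 4392 and 30734, with 8 of 10 genes at least 4-fold higher in stroma. The lens list summed to 5938 and 84322, with 13 of 17 genes at least 4-fold higher in stroma, and the skeletal muscle list to 3814 and 13174. The stroma array thus held clear signal of epithelial, lens and muscle genes. The corneal endothelium list summed to 6529.6 and 8546, with none of its 7 genes 4-fold apart, so the epithelium array also held signal of endothelial genes. The part of all these genes in the connexin values was not tested. Gjc1 ranked above 57.7% of named probe sets on the P28 epithelium array, but above 5.94% on average on the P28 whole-cornea arrays, which include that layer.

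**Figure D3:**
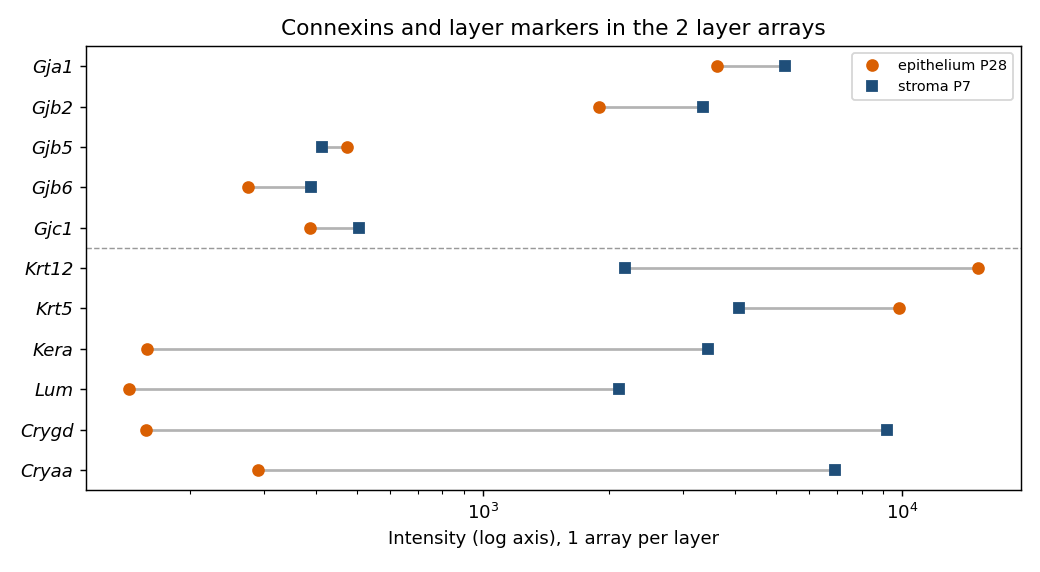
Intensity on a log axis in the P28 epithelium array (circles) and the P7 stroma array (squares), 1 array per layer, for the 5 connexins above the dashed line and 6 layer and lens markers below it. The connexins lie close together in both, while Krt12 is higher in epithelium and Kera, Lum, Crygd and Cryaa are higher in stroma.

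Of 11 further connexin genes with a probe set of 1 symbol, 5 passed the filter. Of these 5, Gja3, Gja6, Gjb1 and Gjd3 were not called over the 12 ages. Gje1, a connexin-like gene of the lens, passed the filter only through the 2 arrays on which it was high, so its difference is a description and no test of it is given. Gje1 read 189, 5799 and 4104 at E14.5 and 123, 129 and 115 at E15.5. Its high arrays were E14.5 replicates 2 and 3, those rich in lens genes. On P14 replicate 2, 2 months replicate 1 and 6 months replicate 2, also rich in lens genes, it read 179, 113 and 136. Of 3 pannexins, which form large-pore channels of related topology, 2 were tested and Panx1 was called (span 1.06, adjusted p = 8.9e-06). That span runs from 536 ± 79.2 (SD, n = 3) at E14.5 to 249 ± 56.0 (SD, n = 2) at 2 years, which lie in different sets of arrays. At 2 months Panx1 averaged 336 ± 8.51 (SD, n = 3), and it was not called for 2 months against E14.5.

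**Figure D4:**
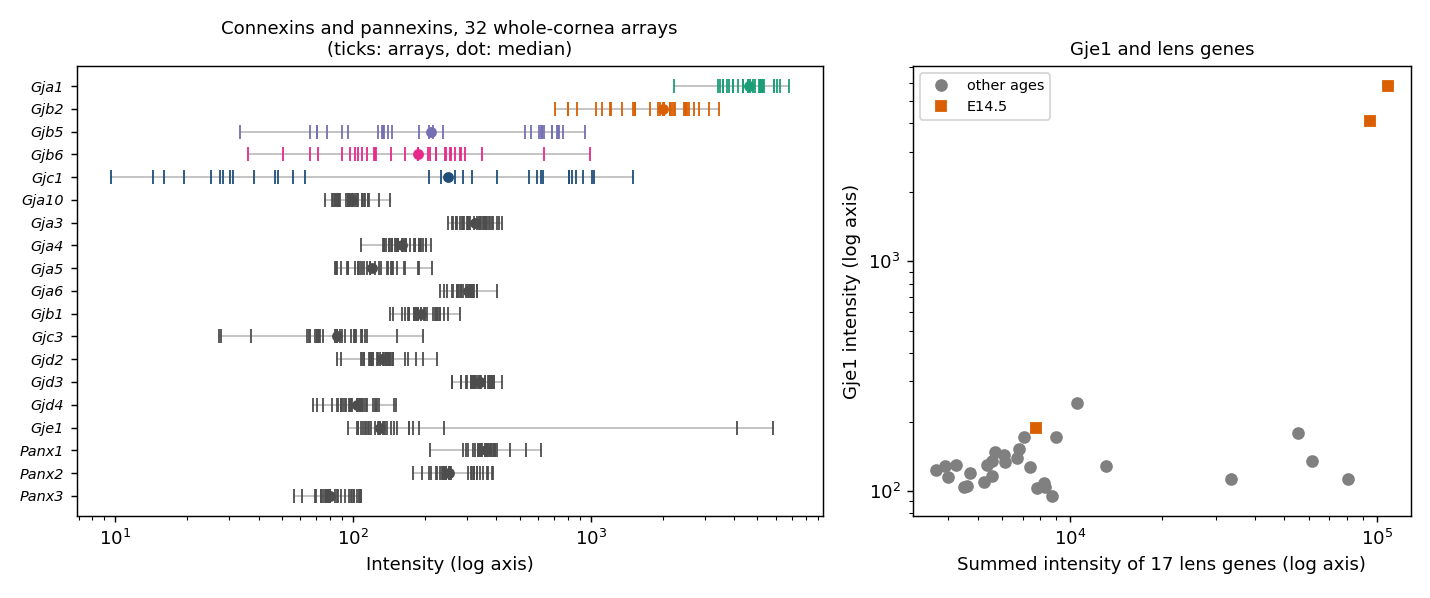
Left, intensity on a log axis of every measured connexin and pannexin on the 32 whole-cornea arrays (ticks are arrays, dots medians), with the 5 described connexins at the top; probe sets differ in brightness, so only the spread within a row is comparable. Right, Gje1 intensity against the summed intensity of 17 lens genes, both on log axes, with E14.5 as squares; Gje1 is high on 2 E14.5 arrays and low on the later arrays that are also rich in lens genes.

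Genes whose products anchor or regulate gap junctions were counted from a list of 20, of which 15 were tested. Over the 12 ages 9 of 15 were called, against 40.6% of all genes, with a median span of 1.20 against 0.87. At E15.5 against E14.5, where 10.4% of all genes were called, 4 of 15 were: Cav1 (1.52), Cdh1 (1.55) and Prkcd (1.55) rose, and Cdh2, the neural cadherin, fell by 2.43. Cdh1 is the epithelial cadherin, Cav1 the coat protein of caveolae and Prkcd a protein kinase. Cdh1 also stands in the corneal epithelium list, of which 11 of 12 genes were called higher at this step. The same count was called higher at 2 months against E14.5. At P28 against P14, 1 of 15 was called, a share near the 7.65% of all genes: Cdh2 (-1.87, adjusted p = 0.00168), which was higher again at 2 months (1.75, adjusted p = 0.00608) and lower with ageing (-1.18, adjusted p = 0.0365). Cdh2 also stands in the corneal endothelium list, which summed to 8208 to 12129 at 2 months. From E14.5 to 2 months, against 16.3% of all genes, 6 of 15 were called: 5 rose, Cav1, Cdh1, Ctnna1, Ctnnd1 and Prkcd, by 1.14 to 2.00, and Cdh2 fell by 1.74. Tjp1, the scaffold ZO-1 that binds Cx43, was called over the 12 ages and in no single contrast.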

How the data were processed

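The samples were 32 arrays of whole cornea and 2 of corneal layers. The deposited intensity of each probe set was made by the authors with PLIER in Affymetrix Expression Console 1.1, per the submitters' processing notes; the order of steps is not given in the sources used here. No further normalization was applied. Of 35557 probe sets, 21789 had 1 gene symbol in the platform annotation, 1621 several and 12147 none, and 2 values were missing. Probe sets above the array median on at least 2 of the 32 arrays were kept, with the brightest on average taken for each gene. With no such filter, no connexin changed its call in any comparison. limma 3.58.1 in R 4.3.3 (lmFit, eBayes, 20 residual and 4.1 prior degrees of freedom) fitted 1 mean per age to log2(intensity + 16) over all 12 ages, with two-sided tests and Benjamini-Hochberg adjustment over 12998 genes per comparison. A call needs an adjusted p under 0.05 and a difference of at least 1. The scripts were tested on simulated data. An array was called rich in a tissue where the median log2 value of that tissue's list was at least 2 above its median over the 32 arrays. The genes named are the 5 connexins, called members of the gene lists, and per connexin the 5 genes with the highest correlation of age means. The connexins and the lists were chosen with earlier results of these data known. The number of arrays limits the precision. For the layers, the ages of the sample labels were used, P28 and P7, although the series' design text names a single one.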

Additional observations from a re-analysis of the deposited data

How the results depend on the processing

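Apart from arrays left out in turn, 1354 values of the connexins kept their side of the threshold, 4 became weaker, 13 stronger and 4, all of the layers, moved. The number of connexins called at E15.5 against E14.5, 1, became 2 with an offset of 1, 0 with the compared ages alone, 4 with no limit on the difference and 1 to 3 with single arrays left out. For the later 6 ages, 1 became 0 with an offset of 64 or quantile normalization. For P7 against P3, 0 became 1 with quantile normalization, with no size limit, and without P7 replicate 1 (range 0 to 1). For E17.5 against E15.5, 0 became 1 with array weights, whose estimation stopped short of its tolerance, or without the lens-rich arrays. For 2 months against P28, 0 became 1 with no limit, and for P14 against E15.5, 1 ran from 1 to 2 with arrays left out. With the P7 whole cornea in place of the stroma array, the layer differences of Gjb2, Gjb5, Gjb6 and Gjc1 were 0.49, 1.43, 1.42 and 0.28 in place of -0.81, 0.19, -0.48 and -0.38, so that the sign turned for all but Gjb5, across arrays of different floors. The cause of these changes was not tested.

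Replicate numbers recur across ages, but same-numbered arrays did not deviate together: the median correlation was -0.01 over 160 same-number pairs and 0.01 over 308 others. With the replicate number as a block, Gjb6 at P28 against P14 was at 1.27 (adjusted p = 0.0121) and no connexin changed its call.

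Counts over all genes moved by over 1.5 times in these comparisons, leaving aside the setting with no size limit: E17.5 against E15.5 (74, range 0 to 399), P3 against E17.5 (246, 134 to 410), P14 against P7 (0, 0 to 119), 2 months against P28 (275, 142 to 449), 6 months against 2 months (163, 47 to 324), 1 year against 6 months (27, 10 to 160), 18 months against 1 year (111, 20 to 310), 2 years against 18 months (58, 14 to 109), ageing (88, 45 to 128) and the later ages (880, 513 to 1215). With no size limit P28 against P14 called 4144 in place of 994 and the 12 ages 10382 in place of 5282. The dim values of Gjc1 from P28 on limit its later differences.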
